A study of Mus musculus with 6 samples.

Results

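The genes of glycolysis and of the pentose phosphate pathway were examined, 34 genes in all, taken by symbol from a count table of 53465 Ensembl genes. Of these, 27 encode the glucose transporters, the glycolytic enzymes with their regulators, lactate dehydrogenase and the lactate transporters, and 7 encode pentose phosphate enzymes. The list was set by the function of the genes. The table holds RNA sequencing of 6 pools of metaphase II (M II) oocytes, matured in vitro for 16 h without (control, 3 pools) or with 10 μM quercetin, a plant flavonoid (3 pools). All oocytes came from Kunming (KM) female mice of 9-10 months, an outbred stock, and each pool combined 15 oocytes of 3 mice. Both groups were matured in M16 medium. Quercetin was dissolved in DMSO, and whether the control medium held DMSO is not stated in the sources used here. Nothing in the labels says whether pools shared mice or a culture day, so the p-values below measure the spread between these pools only.

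Glycolysis splits glucose into pyruvate, and lactate dehydrogenase interconverts pyruvate and lactate. The pentose phosphate pathway branches off at glucose-6-phosphate, and its oxidative arm makes NADPH while its non-oxidative arm exchanges sugar phosphates with glycolysis. Mouse oocytes are known to use pyruvate as their main fuel and to rely on surrounding cumulus cells for much of their glycolysis, while glucose entering the pentose phosphate pathway bears on the resumption of meiosis.

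Total counts ran from 7880467 to 9938743 per pool. Levels within a gene are given as library-scaled counts (CPM, scaled by TMM), and levels between genes as CPM per kilobase of exon. Oocyte markers such as *Zp3*, *Gdf9* and *Mos* were present throughout, with a summed level of 24486 to 28051 CPM in control pools and 25877 to 29529 CPM in quercetin pools, and 12 of 12 passed the filter. Of 20 cumulus and granulosa markers, 7 were at 0 in every pool, among them the defining markers *Amh*, *Foxl2* and *Ptx3*. The 4 that passed the filter were *Cyp19a1*, *Nr5a2*, *Has2* and *Ptgs2*, and *Fshr* had a count in every pool, 61 in all. *Cyp19a1*, at 58.2 to 68.6 CPM in control and 72.8 to 75.7 CPM in quercetin pools, was higher in every quercetin pool. So were *Tnfaip6* (0 against 2, 8 and 4 counts), *Hsd17b1* and *Gatm* at 0 to 2 counts per pool, which did not pass the filter. Of all 11842 tested genes, 5.43% were higher in every quercetin pool. The summed level of the 20 was 74.5 to 92.96 CPM in control and 95.5 to 98.2 CPM in quercetin pools, and 4.79 to 11.3 against 6.57 to 11.2 CPM without *Cyp19a1* and *Nr5a2*. The part of these markers in the results below was not tested.

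The pathway was carried by very unequal transcript levels. *Ldhb*, the H subunit of lactate dehydrogenase (chromosome 6, 142490249 to 142507957, minus strand), stood at 2559 ± 769 CPM per kilobase (SD, n = 6), rank 21 of 24437 detected genes. It held 90.7 to 96.1% of the summed level of the 34 genes in every pool. *Taldo1*, transaldolase of the non-oxidative pentose phosphate arm, was second at 95.5 ± 13.1 CPM per kilobase (rank 612) and held 58.1 to 67.2% of what remained without *Ldhb*. The next were *Rpe*, ribulose-phosphate epimerase, at 12.4 ± 3.22, and *G6pdx*, the glucose-6-phosphate dehydrogenase that opens the oxidative arm, at 10.8 ± 3.81 CPM per kilobase. Counted on the genes themselves, without their pseudogenes, the highest glycolytic enzyme above lactate dehydrogenase was *Pgk1*, phosphoglycerate kinase, at 7.76 ± 1.06 CPM per kilobase. Without *Ldhb*, the other 26 glycolysis genes summed to 29.5 to 34.1 CPM per kilobase per pool, and the 7 pentose phosphate genes to 105 to 140 CPM per kilobase. With counts on pseudogenes added, the 26 genes summed to 54.2 to 62.0 CPM per kilobase and *Gapdh*, at 20.7, stood above *Pgk1*, *Rpe* and *G6pdx*.

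**Figure D1:**
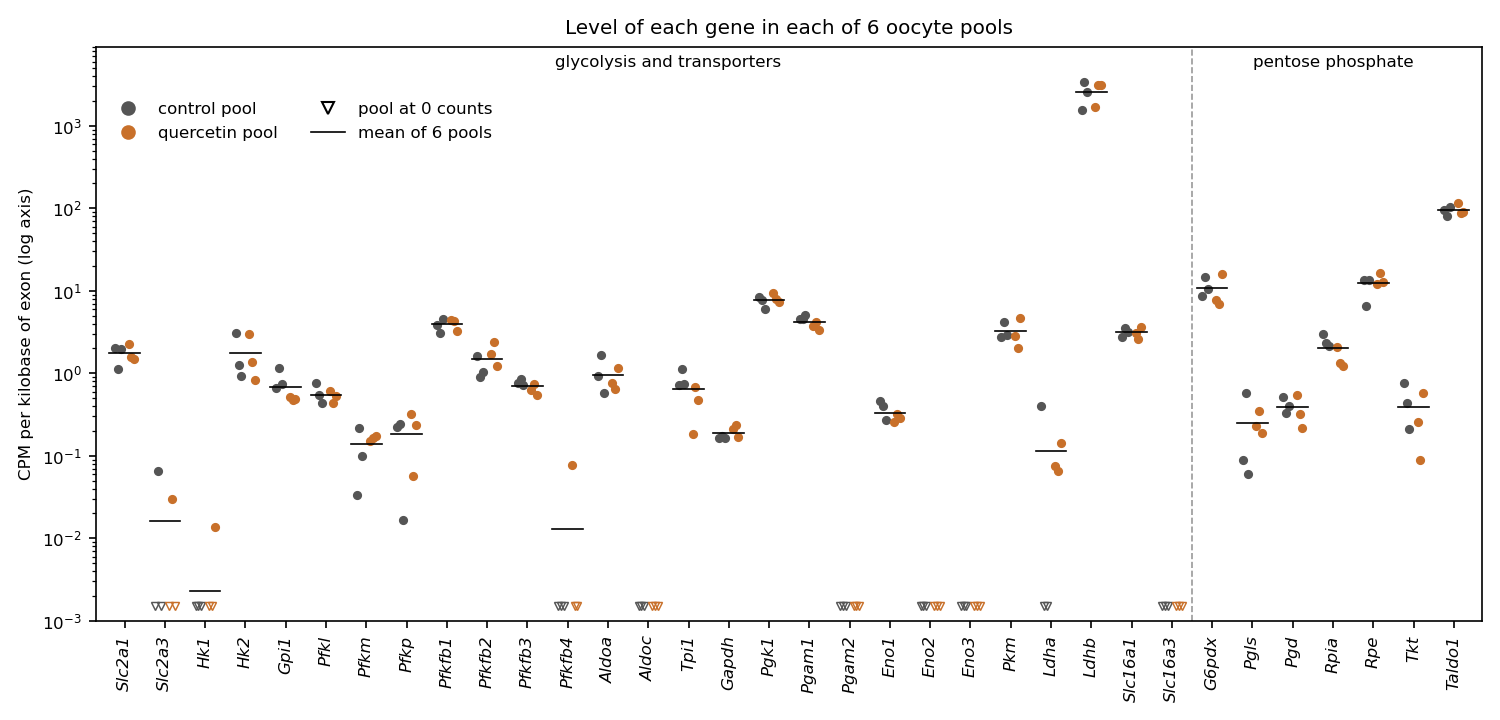
Level of each of the 34 genes in CPM per kilobase of exon on a log axis, with 1 point per pool, a bar at the mean of the 6 pools and open triangles for pools at 0 counts. *Ldhb* lies near 2559 and *Taldo1* near 95.5, while the upper and middle steps of glycolysis lie mostly between 0.1 and 10.

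At the entry of the pathway, *Slc2a1*, which encodes the glucose transporter GLUT1, was at 1.74 ± 0.418 CPM per kilobase. *Hk2*, hexokinase 2, was at 1.75 ± 1.03, with 166, 63 and 50 counts in control and 144, 74 and 42 counts in quercetin pools. *Hk2* was thus highest in the pools numbered 1 of both groups. *Gpi1*, glucose-6-phosphate isomerase, was at 0.674 ± 0.257 CPM per kilobase and *Pfkl*, the liver form of phosphofructokinase 1, the committed step of glycolysis, at 0.553 ± 0.119. Both lay below *G6pdx* in every pool.

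Among the enzymes of the middle and lower pathway, *Aldoa*, aldolase A, was at 0.961 ± 0.414 and *Tpi1*, triosephosphate isomerase, at 0.654 ± 0.316 CPM per kilobase. *Pgam1*, phosphoglycerate mutase, was at 4.24 ± 0.626 and *Pkm*, the muscle-type pyruvate kinase gene, at 3.22 ± 0.998. Of the exon length of *Pkm*, 15.3% overlaps *Gm49759* on the same strand. *Eno1*, enolase 1, stood lower at 0.332 ± 0.0806, and *Gapdh*, glyceraldehyde-3-phosphate dehydrogenase, was lowest of the single-enzyme steps at 0.187 ± 0.0312 CPM per kilobase. The counts of *Gapdh*, *Eno1* and *Pgk1* are affected by sequence shared with pseudogenes, described further on. *Slc16a1*, the monocarboxylate transporter MCT1 that moves lactate and pyruvate across the membrane, was at 3.14 ± 0.419.

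In the pentose phosphate pathway, the later enzymes of the oxidative arm were far lower than *G6pdx*. *Pgls*, 6-phosphogluconolactonase, was at 0.248 ± 0.190 and *Pgd*, 6-phosphogluconate dehydrogenase, at 0.390 ± 0.125 CPM per kilobase. Of the exon length of *Pgls*, 20.6% overlaps *Fam129c* on the same strand. For *G6pdx*, 13.6% overlaps *Ikbkg* on the other strand. How reads in such overlaps were counted is not known, which bears on these levels. In the non-oxidative arm, *Rpia*, ribose-5-phosphate isomerase, was at 2.02 ± 0.652. *Tkt*, transketolase, the partner of transaldolase, was at 0.389 ± 0.250 with 50, 27 and 14 counts in control and 15, 6 and 36 in quercetin pools. *Tkt* thus varied 8.52-fold between pools, against 1.46-fold for *Taldo1*. The transketolase-like genes *Tktl1* and *Tktl2*, outside the 34, had higher mean levels than *Tkt*, at 1.04 ± 0.528 and 1.61 ± 0.739.

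Of the 34 genes, 12 did not pass the filter on low counts, and 5 of these had no count in any pool. The 5 were *Aldoc* and *Pgam2*, the brain and muscle forms of their steps, *Eno2* and *Eno3*, the neuronal and muscle enolases, and *Slc16a3*, the lactate exporter MCT4. A count of 0 in a pool allows, by counting error, up to 3 counts, or 0.302 to 0.381 CPM by library size. A count of 0 thus does not exclude levels under that limit in the pool. *Hk1*, the hexokinase of most tissues, had 1 count in 6 pools, in quercetin pool 3. *Slc2a3*, the transporter GLUT3, had 4 counts in control pool 2 and 2 in quercetin pool 2, and *Pfkfb4* had 3 counts, all in quercetin pool 1. *Ldha*, the M subunit of lactate dehydrogenase, had 12, 0 and 0 counts in control and 2, 2 and 4 in quercetin pools. *Pfkm*, the muscle phosphofructokinase, had 1, 6 and 3 against 4, 5 and 5 counts, and *Pgls* had 3, 18 and 2 against 7, 12 and 6. *Gapdh*, the most widely used reference gene, had 6, 6 and 6 counts in control and 7, 9 and 6 in quercetin pools.

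Among the isozymes within the 34 genes, 1 led each step in the same way in both groups. Outside the list, *Slc2a12*, another glucose transporter, was at 1.04 ± 0.472 CPM per kilobase. It was above *Slc2a1* in quercetin pool 3, at 1.495 against 1.472, and below it in the other pools. The log2 ratio of 2 isozymes was taken within each pool and tested against 0 by a two-sided exact sign-flip permutation test over the 6 pools, adjusted by Benjamini-Hochberg over 17 pairs. In 16 of the 17 pairs all 6 pools lay on 1 side of 0. In 11 of the 16 the lower isozyme was under 3 counts in at least 4 pools and was set to 3 there, so those ratios are lower bounds that set the leading gene against a count near 0, and no p is given for them. The other 5 were *Pfkl* over *Pfkm* and over *Pfkp*, and the pairs among *Pfkfb1*, *Pfkfb2* and *Pfkfb3*. Each had an exact permutation p of 0.03125, the smallest the test allows, and an adjusted p of 0.0332. The adjusted p rests in part on the 11 pairs with lower bounds, which were among the 17 adjusted over. These p-values do not cover error in the exon lengths, which enter the ratios of all pools alike. In quercetin pool 1, *Pfkl* had 33 counts over 6675 bases of exon and *Pfkp* 34 over 13401. An eighteenth pair, *Eno2* and *Eno3*, had no counts to compare.

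The widest gap was that between the lactate dehydrogenase subunits. Control pools had 21802, 43982 and 35668 counts on *Ldhb* and quercetin pools 21417, 44728 and 41175, and it exceeded *Ldha* at least 3830-fold in each pool. The pools numbered 1 were the lowest in both groups, as they were for *Zp2*, the zona pellucida gene, with 1990 and 1045 counts there and 5601 to 12980 in the other pools. These 2 pools were the lowest 2 for 8.94% of all 11842 tested genes. *Hk2* exceeded *Hk1* at least 20.01-fold, *Slc2a1* exceeded *Slc2a3* at least 17.05-fold and *Slc16a1* exceeded *Slc16a3* at least 42.1-fold in each pool. *Aldoa* exceeded *Aldoc* at least 5.60-fold and *Pgam1* exceeded *Pgam2* at least 8.05-fold. *Eno1* exceeded *Eno2* at least 3.21-fold and *Eno3* at least 1.19-fold. These bounds come from setting each count of 0 to 3 within a pool. Over the 6 pools *Eno1* had 93 counts, while *Eno2* and *Eno3* had no count.

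The phosphofructokinases were less one-sided. *Pfkl* exceeded *Pfkm* on average 3.74-fold and the platelet form *Pfkp* 4.04-fold, and held 54.1 to 78.8% of the family's summed level. *Pfkm* and *Pfkp* did not separate (mean log2 ratio 0.11 ± 1.34, SD, n = 6, exact permutation p = 0.844), with *Pfkm* higher in 2 of 6 pools. *Pfkp* ranged from 2 counts in control pool 3 to 34 in quercetin pool 1. For phosphofructokinase 2, which makes and degrades the activator fructose-2,6-bisphosphate, the order was *Pfkfb1*, *Pfkfb2*, *Pfkfb3* and *Pfkfb4* in every pool. *Pfkfb1*, the liver form, was at 3.91 ± 0.615 CPM per kilobase, on average 2.76-fold above *Pfkfb2* and 5.52-fold above *Pfkfb3*. The annotated gene *Gm29427* overlaps *Pfkfb2* on the same strand, and its counts were not added. The level of *Pfkfb2* may thus be too low, which bears on its ratios. The closest neighbours in that order were *Pfkfb2* and *Pfkfb3* in control pool 2, with a ratio of 1.06.

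**Figure D2:**
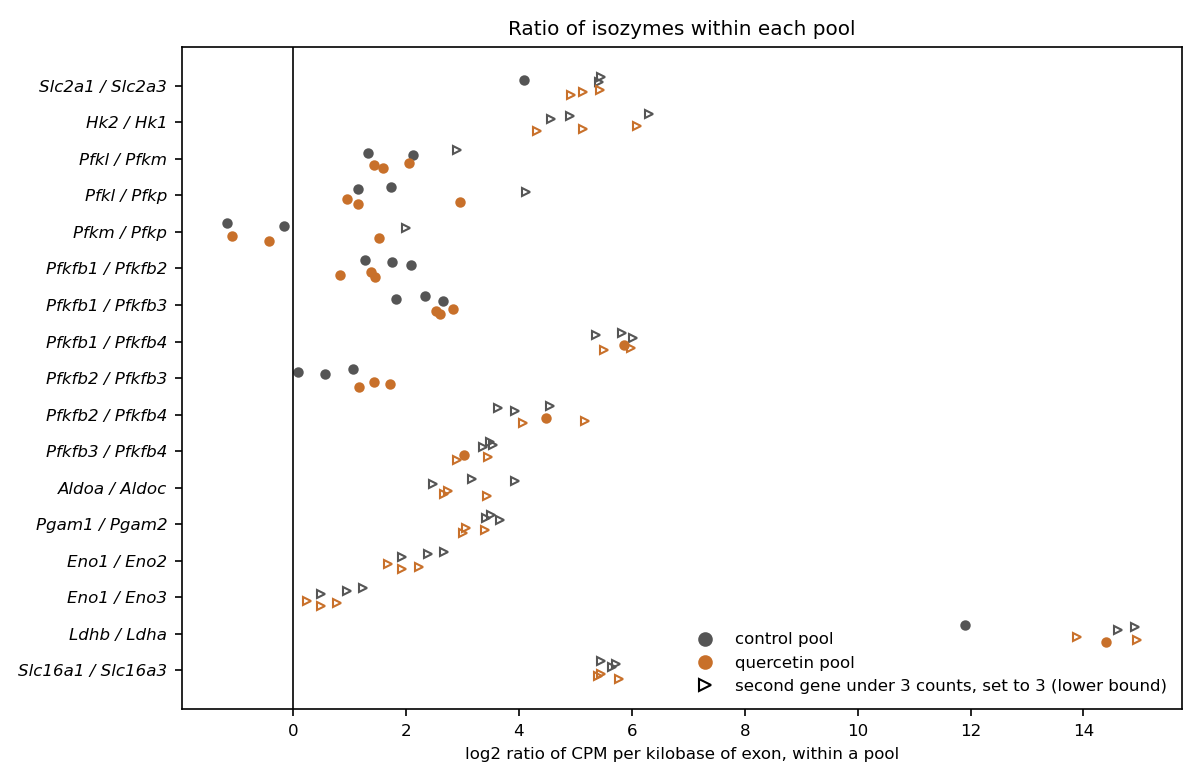
Log2 ratio of CPM per kilobase of exon between 2 isozymes of a step within each pool (1 point per pool, control grey and quercetin orange). Open arrows mark lower bounds, where the second gene had under 3 counts and was set to 3. All points lie to the right of 0 except those of *Pfkm* over *Pfkp*, and *Ldhb* over *Ldha* lies farthest out.

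The isozyme make-up was compared between groups through the share of each isozyme in its family, for 11 shares by a two-sided exact permutation test, in which 3 pools against 3 cannot go under p = 0.1. Of these shares, 1 did not overlap between groups. *Pfkfb3* made up 13.8 ± 3.48% of the phosphofructokinase 2 level in control and 9.94 ± 0.792% in quercetin pools (SD, n = 3 each, exact permutation p = 0.1, adjusted p = 1). *Ldhb* made up 99.97% or more of the summed level of *Ldha* and *Ldhb* in every pool.

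Because *Ldha* and *Ldhb* were so unequal, their upstream sequences are shown. They come from RefSeq on GRCm38.p6, where 33 of the 34 genes had an entry. The letters ACGTG, 1 form of the core of the hypoxia response element bound by HIF1, were searched on both strands. They are in capitals where they or their complement CACGT occur. The palindrome CACGTG, an E-box, holds both. *Ldha* has 2 annotated starts, at chr7:46845554-46845803 and chr7:46846832-46847081 (plus strand, 250 bases before each start), and *Ldhb* has 1, at chr6:142507958-142508207 (minus strand). Sequences run from 5′ to 3′ on the strand of the gene.
Ldha first start: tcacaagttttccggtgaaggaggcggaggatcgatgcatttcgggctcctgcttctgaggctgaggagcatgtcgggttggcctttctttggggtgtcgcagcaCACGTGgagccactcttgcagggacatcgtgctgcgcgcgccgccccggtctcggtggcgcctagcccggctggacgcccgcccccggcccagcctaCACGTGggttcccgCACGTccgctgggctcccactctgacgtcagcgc
Ldha second start: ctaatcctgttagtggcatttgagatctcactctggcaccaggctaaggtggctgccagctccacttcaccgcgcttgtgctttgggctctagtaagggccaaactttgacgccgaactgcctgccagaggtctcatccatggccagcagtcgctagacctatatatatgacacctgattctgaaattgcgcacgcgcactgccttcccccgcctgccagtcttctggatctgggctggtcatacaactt
Ldhb: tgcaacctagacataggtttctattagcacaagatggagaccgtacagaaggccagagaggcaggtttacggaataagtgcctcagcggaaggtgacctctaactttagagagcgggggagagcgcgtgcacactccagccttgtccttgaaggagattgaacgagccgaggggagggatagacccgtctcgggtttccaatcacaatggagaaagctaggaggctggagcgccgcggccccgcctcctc
The first *Ldha* window held 5 matches, counting both strands, and the other windows held none. The letters GCGTG, another form of this core, were not searched. They or their complement CACGC occur in the *Ldhb* window and in the second *Ldha* window. Over 250 bases before and 50 after the start, ACGTG was present for 16 of 33 genes (48.5%), against 21.8% of 27025 genes in the same table. Genes with several starts had more sequence searched, with 51 windows for the 33 genes and 32851 for all. CACGTG was present for 5 of 33 (15.2% against 8.09%), the GC box GGGCGG for 26 of 33 (78.8% against 38.2%), and TATAAA for 3 of 33 (9.09% against 15.7%). Among the genes with ACGTG were *Hk2*, *Pgk1*, *Slc16a1* and *Slc2a1*, but also *Aldoc* and *Slc16a3*, which had no count. These matches describe the letters in the windows and not binding, and the windows of 1 gene were counted together.

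Several of the genes have processed pseudogenes, copies of the messenger RNA inserted elsewhere in the genome, and the sources used here do not say how reads that match several places were counted. Sharing was measured as the percent of the 31-base words in the longest coding sequence found as well in annotated transcripts of any other gene. It was 100% for *Pgk1* and *Pgam1*, 94.3% for *Gapdh*, 89.6% for *Eno1* and 78.1% for *Pkm*. It was 67.6% for *Pfkfb2*, where the annotated readthrough gene *Gm29427* covers the same exons, 57.6% for *Ldha*, 57.1% for *Gpi1*, 54.1% for *Ldhb*, 41.6% for *Aldoa* and 31.6% for *Tpi1*. *Taldo1* shared 26.7%, *G6pdx* 23.6% and *Slc2a1* 5.18%, and the other genes shared less than 1%.

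*Gapdh* was the extreme case. Over the 6 pools, 40 counts lay on *Gapdh* itself (chromosome 6, 125161715 to 125166467, minus strand) and 4400 on 95 pseudogenes that share at least 20% of their own words with it, or 99.1% of the sum. Of these pseudogenes, 88 had a count. The highest was *Gm12070* on chromosome 11, with 306, 286 and 368 counts in control and 312, 328 and 257 in quercetin pools. *Gm13394* on chromosome 2 followed with 162, 167 and 216 against 187, 244 and 224 counts. With the pseudogene counts added, the level of *Gapdh* was 20.7 ± 1.74 instead of 0.187 CPM per kilobase, and its log2 fold change with quercetin was 0.05 (SE 0.15, adjusted p = 0.996, edgeR quasi-likelihood test).

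A primer pair in the study's qPCR list shows how alike these copies are. The pair printed beside *Sod2* in that list matched exons 2 and 3 of *Gapdh*, chr6:125163330-125165286 on GRCm38, with a coding product of 123 bases, 41 annotated pseudogenes and 4 other genes, *Gm10358*, *Gm3839*, *Gm47854* and *Vmn2r60*. Of the 41 pseudogenes, 10 carried a product identical to that of *Gapdh* and 38 had a count, 4025 in total. The pair printed beside *Gapdh*, the gene to which the study scaled its qPCR, matched *Gpx4*. For both pairs, the gene matched is one named in another row of the list. The rows as read here may thus be out of place, and which pair was used for which gene cannot be told from the list. The product is given below on the strand of the gene with the primer sites in capitals, for *Gapdh* and for 3 of the pseudogenes with the most counts.
Gapdh: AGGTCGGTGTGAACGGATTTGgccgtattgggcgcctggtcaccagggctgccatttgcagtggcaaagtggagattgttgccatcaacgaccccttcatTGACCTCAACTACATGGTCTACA
Gm12070: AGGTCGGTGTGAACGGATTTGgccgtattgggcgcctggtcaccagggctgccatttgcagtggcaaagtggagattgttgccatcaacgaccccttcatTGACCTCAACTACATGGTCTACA
Gm13394: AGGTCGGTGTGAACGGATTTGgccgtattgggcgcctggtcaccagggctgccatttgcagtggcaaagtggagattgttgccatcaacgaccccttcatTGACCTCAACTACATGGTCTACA
Gm2451: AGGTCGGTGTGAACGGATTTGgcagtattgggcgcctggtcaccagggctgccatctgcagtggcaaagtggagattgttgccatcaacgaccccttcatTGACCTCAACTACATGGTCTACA
*Gm12070* and *Gm13394* were identical to *Gapdh* over these bases, and *Gm2451*, with 366 counts, differed at 2 of them.

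For the other genes the pseudogenes took a smaller part. *Eno1* had 93 counts over the 6 pools against 199 on its pseudogenes, nearly all on *Gm4735*, and *Eno1b*, a near-copy annotated as protein-coding, held a further 67. *Pgk1* had 901 counts against 432 on pseudogenes, mostly *Pgk1-rs7*, which brought its level to 11.5 ± 1.59 CPM per kilobase. *Ldhb* had 208772 counts against 13982 on the pseudogene *Gm5514*, which had 1536, 3130 and 2312 counts in control and 1359, 3227 and 2418 in quercetin pools and was thus also lowest in the pools numbered 1. *Gpi1* had 225 counts against 38, *Pgam1* 437 against 47, *Pkm* 831 against 70 and *Taldo1* 10731 against 67. The 5 pseudogenes of *Ldha* found by the same rule had no count.

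**Figure D3:**
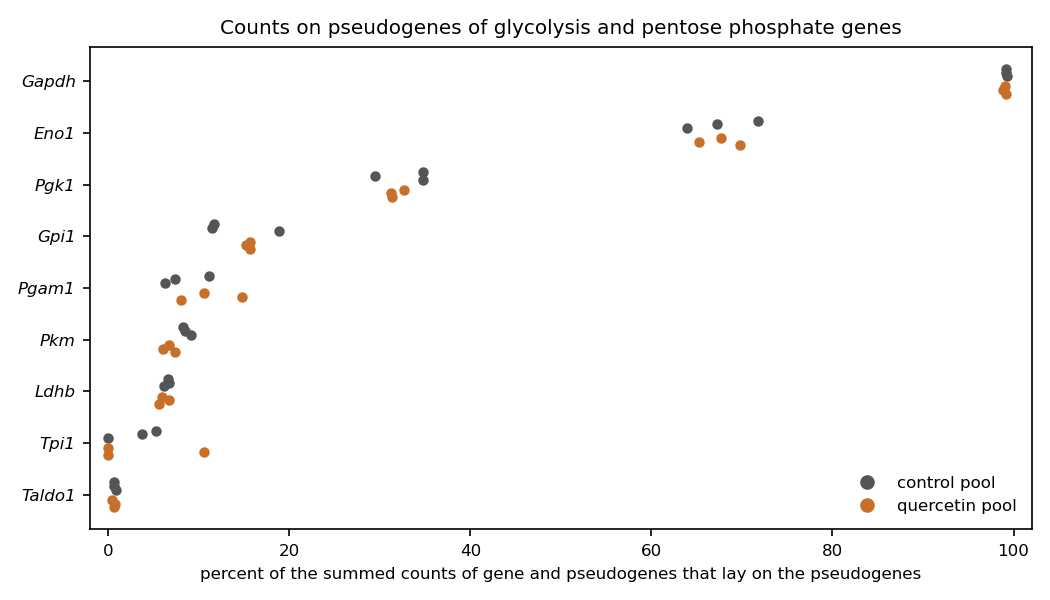
Percent of the summed counts of a gene and its pseudogenes that lay on the pseudogenes, 1 point per pool, for the 9 genes with such counts. *Gapdh* lies near 99.1% and *Eno1* near 68.2% in both groups, *Pgk1* near 32.4%, and the others lower.

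The comparison of quercetin with control asked which of these genes differed after maturation. No gene of the 34 differed more than 2-fold at an adjusted p under 0.05 (quasi-likelihood test of edgeR, Benjamini-Hochberg), nor did any other of the 11842 tested genes (0.0% called, lowest adjusted p = 0.0730). At an unadjusted p under 0.05 stood 2 of the 22 tested genes, both lower with quercetin, against 1.89% of all tested genes lower and 2.14% higher. In 4 of the 22, every quercetin pool lay below every control pool, and in none above, against 5.15% of tested genes below and 5.43% above. The log2 fold change was below 0 for 14 of 22 (63.6%, against 53.6% of tested genes), with a median of -0.09 against -0.03 over all tested genes. Adjusted p-values of the 22 ran from 0.988 to 0.999. In pooled oocytes, fewer cells with a transcript and less of it per cell cannot be told apart.

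The 2 genes at an unadjusted p under 0.05 were *Gpi1* and *Rpia*. *Gpi1* (chromosome 7, 34201330 to 34230336, minus strand) had 4.25, 7.42 and 4.82 CPM in control and 3.37, 3.06 and 3.17 CPM in quercetin pools, or a change of -0.78 on the log2 scale (SE 0.31, 95% interval -1.48 to -0.08, unadjusted p = 0.0333 and adjusted p = 0.988, edgeR quasi-likelihood test). The quercetin pools were nearly equal, and control pool 2 lay above the rest. Without that pool the log2 fold change was -0.50 with an unadjusted edgeR p of 0.159. Of the exon length of *Gpi1*, 11.5% overlaps *Gm26762* on the other strand, which had 3 counts in all.

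*Rpia* (chromosome 6, 70765720 to 70792232, minus strand) had 143, 104 and 103 counts in control and 89, 66 and 56 in quercetin pools. In scaled values the highest quercetin pool, at 11.1 CPM, lay just below the lowest control pool at 11.6. Its log2 fold change was -0.69 (SE 0.28, 95% interval -1.31 to -0.06, unadjusted p = 0.0349 and adjusted p = 0.988, edgeR quasi-likelihood test). No word of its coding sequence was shared with another gene. Leaving out 1 pool at a time, the unadjusted edgeR p was under 0.05 in 2 of 6 cases for each of the 2 genes, and ran from 0.0244 to 0.159 for *Gpi1* and from 0.00923 to 0.124 for *Rpia*.

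The other genes without overlap between groups were *Tpi1* and *Pgam1*. *Tpi1* had 18, 26 and 18 counts in control and 4, 17 and 11 in quercetin pools, with a log2 fold change of -0.94 (SE 0.49, adjusted p = 0.988, edgeR quasi-likelihood test), the largest in size of the 22. Quercetin pool 1 was the lowest, and quercetin pool 2 lay close to the control pools at 1.86 CPM against 2.01. *Pgam1* had 8.95, 9.10 and 10.1 CPM in control and 7.37, 8.20 and 6.69 CPM in quercetin pools, or a change of -0.34 on the log2 scale (SE 0.23, adjusted p = 0.988, edgeR quasi-likelihood test). For each of the 4 genes the two-sided exact permutation test gave p = 0.1, the smallest that 3 pools against 3 allow. By library size alone, *Pfkfb3* joined them, making 5, but the share over all tested genes was not counted under that scaling.

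**Figure D4:**
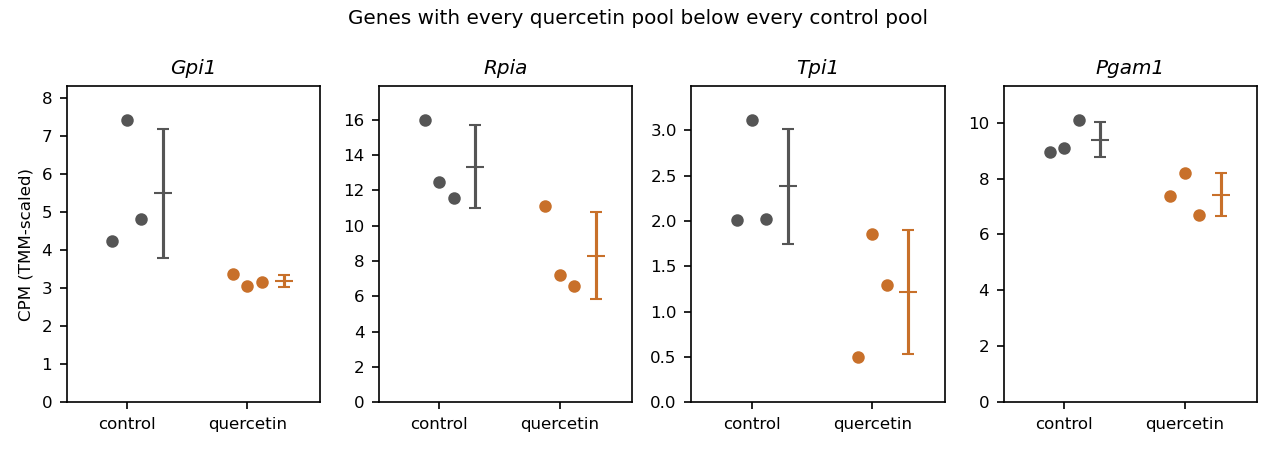
TMM-scaled CPM of *Gpi1*, *Rpia*, *Tpi1* and *Pgam1* in the 3 control and 3 quercetin pools, with the mean and SD of each group beside the points. In *Rpia* and *Tpi1* the highest quercetin pool lies close to the lowest control pool, and in *Gpi1* 1 control pool lies far above the rest.

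The remaining genes overlapped between groups. *Slc2a1* had 7.16, 3.95 and 6.95 CPM in control and 7.87, 5.58 and 5.16 CPM in quercetin pools (log2 fold change 0.04, SE 0.32). *Hk2* had a log2 fold change of -0.04 with an SE of 0.55, the spread between its pools being wide in both groups. *Pfkl* (-0.13, SE 0.32), *Pfkfb1* (0.07, SE 0.23) and *Aldoa* (-0.30, SE 0.45) did not pass the test either. *Pfkfb2* had the largest positive value of the 22, with 11.6, 6.59 and 7.63 CPM in control and 12.4, 17.5 and 8.80 CPM in quercetin pools (log2 fold change 0.58, SE 0.33). Of its exon length, 19.5% lies under other annotated genes.

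In the lower pathway, *Pgk1* had 18.7, 17.2 and 13.7 CPM in control and 20.9, 17.6 and 16.4 CPM in quercetin pools (log2 fold change 0.15, SE 0.22). *Eno1* had 22, 18 and 13 counts against 11, 16 and 13 (-0.38, SE 0.38). *Pkm* had 13.6, 20.8 and 14.6 CPM against 14.0, 10.2 and 23.5 CPM (-0.04, SE 0.33), so both the lowest and the highest pool were quercetin pools. *Ldhb*, the most abundant, had a log2 fold change of 0.08 (SE 0.31, 95% interval -0.61 to 0.78), and *Slc16a1* of -0.03 (SE 0.23, interval -0.55 to 0.48).

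In the pentose phosphate pathway, *G6pdx* had 26.8, 45.9 and 32.0 CPM in control and 23.6, 21.5 and 49.3 CPM in quercetin pools (log2 fold change -0.15, SE 0.34). As with *Pkm*, the highest values were those of control pool 2 and quercetin pool 3. *Taldo1* had 205, 174 and 224 CPM against 254, 190 and 197 CPM, and its log2 fold change of 0.09 (SE 0.17, interval -0.29 to 0.47) was the most tightly bounded of the 22. *Rpe* had 41.7, 20.2 and 41.9 CPM against 38.1, 50.5 and 39.9 CPM (0.31, SE 0.29), control pool 2 standing below the others, and 17.9% of its exon length overlaps *Kansl1l* on the other strand. *Pgd* (-0.22, SE 0.41) and *Tkt* (-0.63, SE 0.65) did not pass the test.

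The 95% interval lay within a 2-fold change in either direction for 12 of the 22 genes and reached past it for 10. For the 10, which include *Hk2*, *Pfkp*, *Tpi1* and *Tkt* but also *Gpi1* and *Rpia*, a 2-fold difference in at least 1 direction was not excluded. That holds for the interval of this fit, which did not pair pools.

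**Figure D5:**
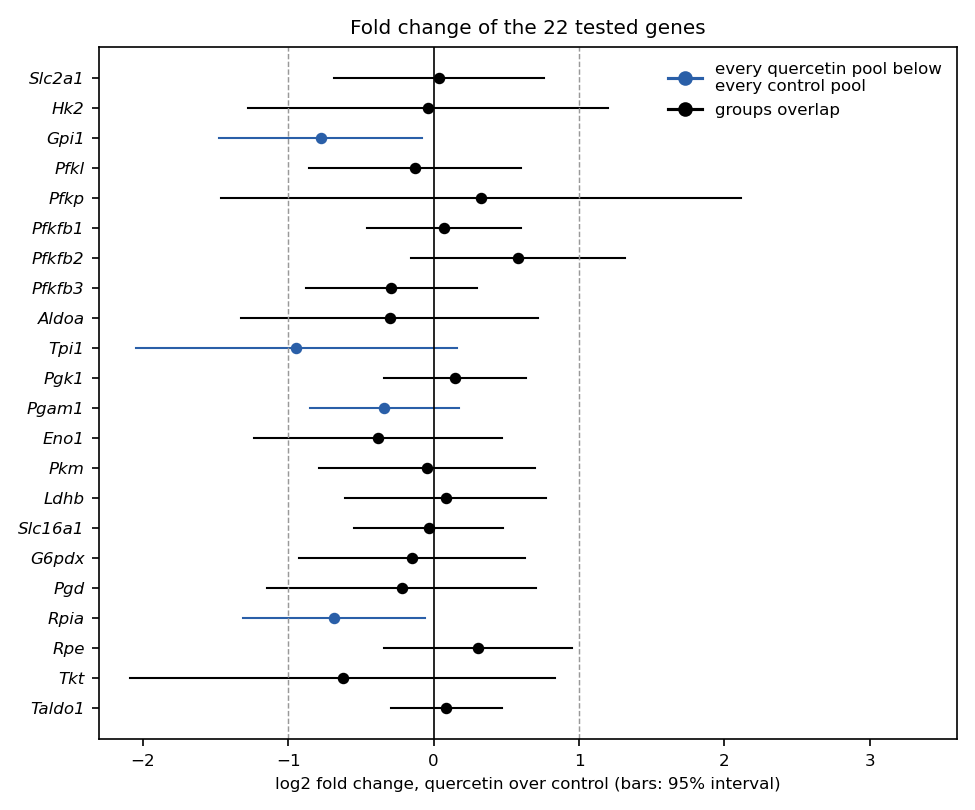
Log2 fold change of the 22 tested genes, quercetin over control, with 95% intervals from the quasi-likelihood fit. Dashed lines mark a 2-fold change in each direction, and blue marks the 4 genes with every quercetin pool below every control pool. The intervals of *Gpi1* and *Rpia* lie below 0, and the others include 0.

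A further list of 58 genes held the other isozymes of these steps, gluconeogenesis, glycogen and other side routes, and regulators. Of these, 27 were tested, none was called by edgeR's quasi-likelihood test, and 2 stood at an unadjusted p under 0.05, both lower. The log2 fold change was below 0 for 17 and above for 10, with a median of -0.15, and 3 had every quercetin pool below every control pool. Over all tested genes, as given above, the shares were 1.89% lower at that p, 5.15% without overlap and 53.6% below 0. *Mlxipl*, the glucose-sensing transcription factor ChREBP, had 87, 103 and 79 counts in control and 46, 52 and 51 in quercetin pools (log2 fold change -0.83, SE 0.24, unadjusted p = 0.00780 and adjusted p = 0.988, edgeR). The quercetin pools were close to each other and well below the control pools. *Tktl2*, a transketolase-like gene, had 89, 137 and 74 against 34, 63 and 67 counts (-0.86, SE 0.34, unadjusted p = 0.0327 and adjusted p = 0.988, edgeR).

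The highest level in that list was that of *Bpgm*, bisphosphoglycerate mutase, which makes and removes 2,3-bisphosphoglycerate beside the main pathway. It was at 2298 ± 379 CPM per kilobase, rank 27 of the detected genes and thus close to *Ldhb*, with 60358, 56830 and 76363 counts in control and 74605, 92614 and 67278 in quercetin pools (log2 fold change 0.31, SE 0.16). *Hif1a*, the hypoxia-inducible factor that drives many glycolytic genes in other cells, followed at 79.4 ± 11.8, above every one of the 34 genes but *Ldhb* and *Taldo1*. *Bsg* and *Emb*, the partner proteins that carry monocarboxylate transporters to the membrane, were at 20.9 ± 6.37 and 11.4 ± 2.44, and *Gpd1l*, a glycerol-3-phosphate dehydrogenase-like enzyme, at 9.69 ± 2.07 CPM per kilobase. Another 12 genes of the list had no count in any pool, among them *Pklr*, *Pck1* and *Pgk2*.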

How the data were processed

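RNA was sequenced from 6 pools of M II oocytes after Smart-seq amplification. The authors deposited raw counts, the number of reads per Ensembl gene in each pool, with no normalization. The paper's methods name Hisat2 and GRCm38, the submitters' processing notes CASAVA 1.8, TopHat2 2.0.6 and mm10, and the counting program is not given in the sources used here. Groups and replicate numbers came from the labels. The genes and lists were chosen with earlier results of these data known.

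Counts were tested with edgeR 4.0.16 in R 4.3.3 (filterByExpr, TMM, glmQLFit and glmQLFTest without covariates), with Benjamini-Hochberg adjustment over 11842 genes. Of 53465 identifiers, 53274 had a symbol, and 24476 had a count. Of 2 identifiers named *Aldoa*, the protein-coding one that came first by identifier was used. Exon lengths, positions and 31-base words came from GENCODE M21 on GRCm38. Levels are means ± SD. Full values are given for the leading isozyme of each step, for genes with an unadjusted p under 0.05 or without overlap between groups, and for genes under the filter. Related genes were named at an unadjusted p under 0.05 or among the 5 highest levels. *Slc2a12* and *Tktl1* were named beside the genes they were compared with. Other settings tried were limma-voom (limma 3.58.1), DESeq2 1.42.0, a likelihood ratio test, other scalings and filters, the replicate block, each pool left out and pseudogene counts added. Python 3.11.15 with scipy 1.17.1 served the exact tests. Floors cover counting error only, while intervals of fold changes include the spread between pools. Human oocytes, imaging and qPCR were not analysed here.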

Additional observations from a re-analysis of the deposited data

How the results depend on the processing

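None of the 34 genes, and none of the 58 related genes, was called under any alternative run for it. Over all genes, DESeq2 called 11, the likelihood ratio test 16, and no filter 3, and leaving out 1 pool called 0 to 7, against 0 in the test as reported. The number at an unadjusted p under 0.05, 477 as reported, was 780 without a filter and 241 to 1563 with 1 pool left out, the highest without quercetin pool 3 and the lowest without control pool 2. Among the 34 genes it was 2 as reported, 1 with DESeq2 and 0 to 2 with 1 pool left out, where *Gpi1* and *Rpia* were not always the genes counted. The replicate block gave 0 calls over all genes and 492 at an unadjusted p under 0.05, and 1 of the 34 genes. That gene was *Rpia* (unadjusted p = 0.0163 and adjusted p = 0.906, edgeR). *Gpi1* was not counted (unadjusted p = 0.0535 and adjusted p = 0.906, edgeR). With the block the SE of the log2 fold change was 0.23 instead of 0.55 for *Hk2* and 0.17 instead of 0.31 for *Ldhb*. For other genes it rose, as for *Gpi1* from 0.31 to 0.33. Among the related genes the replicate block gave 4 and leaving out 1 pool 1 to 5, against 2 as reported. The labels number the pools 1 to 3 in each group, but the deviations of same-numbered pools from their group means correlated at 0.30, 0.10 and -0.03, against -0.30 to 0.18 for pools of different numbers. Since not every pair passed 0.1, the numbers were not used to pair pools, and whether some pools share an origin is unknown. With library size only, 2 log2 fold changes turned sign, *Slc2a1* to -0.0463 and *Pfkfb1* to -0.0178. With 1 pool left out, 12 turned sign, ranging from -0.19 to 0.18 for *Slc2a1*, -0.70 to 0.65 for *Hk2*, -0.28 to 0.12 for *Pfkl*, -0.20 to 0.78 for *Pfkp*, -0.0654 to 0.22 for *Pfkfb1*, -0.59 to 0.20 for *Aldoa*, -0.44 to 0.20 for *Pkm*, -0.16 to 0.36 for *Ldhb*, -0.16 to 0.0817 for *Slc16a1*, -0.63 to 0.10 for *G6pdx*, -0.62 to 0.0395 for *Pgd* and -0.0554 to 0.18 for *Taldo1*. Of 213 fold changes under alternatives that kept all pools, the remaining 211 kept their direction and their side of the threshold. The isozyme order held on 1 side in 16 pairs under each alternative run, and the shares without overlap numbered 1 to 4 with 1 pool left out, against 1. With the length of the longest transcript in place of all exons, levels rose, that of *Eno1* from 0.332 to 0.882 and that of *Gpi1* from 0.674 to 1.36 CPM per kilobase. With 5 pools the sign-flip test cannot reach p under 0.05, so only the side was followed. The cause of these shifts was not tested.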

Other observations

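Pools of both groups shared patterns across several of these genes, which were noticed after the values were seen. The pools numbered 1 were the highest 2 for *Hk2*, *Pfkl*, *Pgd*, *Pgk1* and *Slc2a1*, or 5 of the 22 tested genes (22.7%), against 10.2% of all 11842 tested genes. Control pool 2 and quercetin pool 3, the pools with the lowest total counts of their groups, were the highest 2 for *Aldoa*, *G6pdx*, *Pkm* and *Slc16a1*, or 4 of 22 (18.2%), against 11.5% of all tested genes. The 2 pools of the first pattern were also the lowest 2 for *Ldhb*. These shares are descriptions of 6 libraries, and their source was not tested.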
